A study of Rattus norvegicus with 24 samples.

Results

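Dihydrotestosterone (DHT), an androgen that aromatase does not turn into estrogen, was injected into castrated male rats, and RNA of the prostate was profiled on one-colour microarrays. The samples described here are those whose label gives prostate as the tissue, 6 of the 24 samples of the series. Vehicle and DHT groups had 3 arrays each. All were 12-week-old castrated Sprague-Dawley males, dosed once into the peritoneum 3 days after castration and killed 16 h later. DHT animals received 10 mg/kg and control animals received vehicle, so both groups carry the same 3 days of androgen loss before the dose. The labels name neither the prostate lobe nor the solvent, and the prostate samples used here hold no unoperated males, so no level can be set against an intact gland. Each array carried RNA of 1 whole-tissue sample. In bulk RNA of this kind fewer cells of a type and less RNA per cell cannot be told apart.

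The prostate is an exocrine gland whose luminal epithelium depends on androgen. After castration these cells stop making most of their secreted proteins and many die, and androgen replacement starts secretion again and later regrowth. Secreted proteins enter the endoplasmic reticulum (ER), are folded and glycosylated there, travel in coated vesicles to the Golgi, and are sent back for degradation by the proteasome if they fail to fold.

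Levels below are the log2 processed signal of a spot after subtraction of its array's 75th percentile, so that a level of 0 equals the 75th percentile and a difference of 1 is 2-fold. Of 25370 features tested (6515 with a gene symbol), 2454 passed limma's test at a Benjamini-Hochberg adjusted p under 0.05, or 9.67%. DHT raised 1294 (5.1%) and lowered 1160 (4.57%). Groups did not overlap in 9047 features (35.7%), and 6986 had an unadjusted p under 0.05. Beyond the largest changes lay many called features of moderate size. The median fold of the called features was 2.19 among rises and 2.24 among falls. All 1294 called rises and 1156 of the 1160 called falls were at least 1.5-fold, so smaller changes hardly entered these medians. Over all features tested the median log2 fold change was 0.06. At least a 2-fold change was reached by 796 rises and 749 falls, at least 4-fold by 182 and 130, and at least 8-fold by 47 and 28. Among genes with a symbol, 396 rose and 356 fell.

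On the 6 arrays, between 59.3% and 73.1% of probes were well above background and no spot was saturated. The arrays are named V1 to V3 (vehicle) and D1 to D3 (DHT) where counts with 1 array left out are given. Vehicle array 3 (V3) stood apart, with a correlation of 0.908 to 0.918 with each other prostate array against 0.961 to 0.987 among the rest, and 1531 outlier spots against 2 to 273. Without it, 1694 features were higher and 1092 lower. Leaving out any other single array lowered the total to between 648 (without D2) and 1049 (without D1), with 691 without V1, 738 without V2 and 959 without D3. Counts of called list members below are followed by the count with 1 array left out wherever it moved by more than 1.5 times. They stand against 9.67% called over all features and 11.5% over genes with a symbol. Each prostate array lay on a slide of its own, vehicle on 3 slides and DHT on the other 3, so slide and treatment cannot be told apart. The spread that the p-values rest on is that among these samples alone, which the series' design text calls biological replicates without naming the animals. In the full fit and in all 6 fits with 1 array left out, 516 features were called. Of the 197 called genes that the rule for named genes gave, 80 passed in all 6 of those fits and 51 in at most 1.

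**Figure D1:**
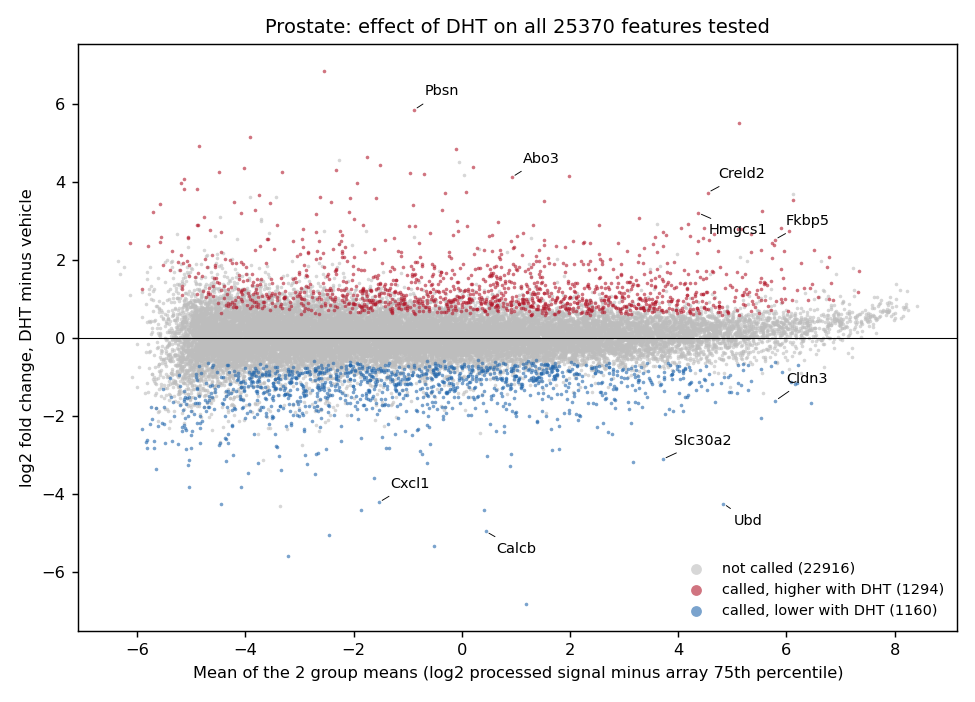
Effect of DHT on every feature tested in prostate, plotted as log2 fold change (DHT minus vehicle) against the mean of the vehicle and DHT group means on the log2 scale. Red and blue points are the 1294 rises and 1160 falls called by limma, which lie over most of the range of levels, and grey points did not pass.

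Both marker genes followed the labels. Pbsn, which encodes the secreted lipocalin probasin, had levels of -3.90, -3.96 and -3.56 on the vehicle arrays and 1.36, 2.42 and 2.35 on the DHT arrays. Its rise of 5.85 ± 0.31 log2 units (SE, adjusted p = 0.00298, limma) was the largest among genes with a symbol well above background on all 6 arrays. Fkbp5, a co-chaperone of steroid receptors that androgens are known to induce, had levels of 4.38, 4.39 and 4.80 on the vehicle arrays and 7.02 and 7.07 on the 2 DHT arrays with a value, a rise of 2.52 ± 0.21 (adjusted p = 0.00557). No vehicle array reached any DHT array for either gene. The promoter of Pbsn, a gene used to drive androgen-dependent transgenes in the prostate, is printed with the 6-base core of the androgen response element (AGAACA, or TGTTCT on the other strand) in capitals. It lay 232 bases before the start, and these letters were in 20.1% of all promoters, 13.8% of those of tested genes, 14.5% of those of genes called higher and 14.5% of those called lower.
Pbsn (chrX:45807934-45808233, minus strand, RefSeq GRCr8): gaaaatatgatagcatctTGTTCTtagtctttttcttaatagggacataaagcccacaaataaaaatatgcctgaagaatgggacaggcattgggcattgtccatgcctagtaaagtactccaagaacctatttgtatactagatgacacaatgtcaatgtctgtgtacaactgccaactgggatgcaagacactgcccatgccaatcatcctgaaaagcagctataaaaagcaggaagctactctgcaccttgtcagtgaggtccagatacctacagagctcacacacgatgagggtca

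Of 27 tested androgen response targets, genes known mostly from human prostate cells, 2 rose and 3 fell (5 without V3 and 2 without any other array for rises, 1 without V2, D1 or D3 and 2 without any other array for falls). The median was 0.03 (-0.16 with normexp), 15 values were positive and 18.5% of the list was called, against 9.67% of all features. Besides Fkbp5, the acyl-CoA synthetase gene Acsl3 rose (1.33 ± 0.16). Ndrg1, a stress-responsive gene known to rise with androgen in human prostate cells, had levels of 2.82, 2.26 and 2.16 on the vehicle arrays and 0.65, 0.52 and 0.45 on the DHT arrays, a fall of 1.87 ± 0.21 (adjusted p = 0.00691, limma). All 3 DHT arrays lay below all vehicle arrays for Ndrg1, which passed in all 6 fits with 1 array left out. The keratin genes Krt8 and Krt19 were the other falls. Zbtb16 (1.40 ± 0.39, 0.0761) and Tsc22d3 (1.04 ± 0.33, 0.100), both known as targets of glucocorticoid receptors as well, did not pass. Tmprss2, a protease gene under androgen control in human prostate, stood at -0.34 ± 0.14 (0.180).

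Genes of several steps of the route that secreted proteins take rose. The promoters of several ER folding genes are printed first, chosen because they hold the ER stress element or its shorter form. The ER stress element, bound by ATF6 together with NF-Y, reads CCAAT, then 9 bases of any kind, then CCACG. It was searched on both strands of the promoters of RefSeq's GRCr8 table, each 300 bases long, from 250 bases before the gene's start to 50 after it. It was found in 21 of 27457 promoters (0.0765%) and in 10 of the 5290 promoters of tested genes. Among the ER chaperone and disulfide isomerase genes called higher, 5 of 12 with a promoter in the table held it (41.7%), and 6 of the 15 tested members with a promoter (40%). The share was thus about the same among called and tested members. The list was made with earlier results of these data known, so these shares are a description with no test. The 5 promoters of genes called higher follow, written 5′ to 3′ on the strand of the gene. The fixed letters of each element are in capitals (CCAAT and CCACG, or CGTGG and ATTGG where it lies on the other strand).
Calr (chr19:40213117-40213416, plus strand): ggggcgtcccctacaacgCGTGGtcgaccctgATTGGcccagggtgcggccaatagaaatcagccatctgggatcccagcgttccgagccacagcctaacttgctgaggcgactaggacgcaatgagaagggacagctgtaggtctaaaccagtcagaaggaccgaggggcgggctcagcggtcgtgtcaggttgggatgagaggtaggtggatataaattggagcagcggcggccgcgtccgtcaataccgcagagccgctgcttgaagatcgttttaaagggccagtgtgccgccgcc
Creld2 (chr7:121789134-121789433, plus strand): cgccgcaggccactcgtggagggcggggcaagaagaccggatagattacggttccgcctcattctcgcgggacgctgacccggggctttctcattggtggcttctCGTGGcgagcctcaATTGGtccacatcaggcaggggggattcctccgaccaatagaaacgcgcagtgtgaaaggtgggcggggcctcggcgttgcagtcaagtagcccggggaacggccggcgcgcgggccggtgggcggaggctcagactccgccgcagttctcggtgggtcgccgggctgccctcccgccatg
Dnajc3 (chr15:102432417-102432716, plus strand): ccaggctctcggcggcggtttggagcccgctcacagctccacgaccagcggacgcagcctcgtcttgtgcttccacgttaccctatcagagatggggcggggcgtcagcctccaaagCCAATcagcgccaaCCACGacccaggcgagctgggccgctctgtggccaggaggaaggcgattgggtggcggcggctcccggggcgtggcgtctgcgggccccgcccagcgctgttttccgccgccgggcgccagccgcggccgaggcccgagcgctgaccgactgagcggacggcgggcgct
Hsp90b1 (chr7:23012244-23012543, minus strand): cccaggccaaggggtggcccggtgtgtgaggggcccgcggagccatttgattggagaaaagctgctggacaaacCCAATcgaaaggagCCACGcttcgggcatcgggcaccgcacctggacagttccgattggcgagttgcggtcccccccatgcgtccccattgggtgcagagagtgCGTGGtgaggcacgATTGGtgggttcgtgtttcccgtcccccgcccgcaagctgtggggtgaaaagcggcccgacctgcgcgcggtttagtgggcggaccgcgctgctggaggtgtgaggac
Hspa5 (chr3:38452766-38453065, plus strand): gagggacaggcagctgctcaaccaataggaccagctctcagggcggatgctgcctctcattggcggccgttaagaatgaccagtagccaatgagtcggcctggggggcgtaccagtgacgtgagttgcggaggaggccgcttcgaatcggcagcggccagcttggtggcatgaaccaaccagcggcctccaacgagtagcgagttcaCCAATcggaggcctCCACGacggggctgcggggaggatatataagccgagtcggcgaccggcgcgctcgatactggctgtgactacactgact
The first base of the element lay 232 bases before the start in Calr, 145 in Creld2, 133 in Dnajc3 and 43 in Hspa5, and Hsp90b1 held one at 176 and one at 72. No other called gene with a promoter in the table held this element, and 0 of 276 promoters of genes called lower did. The other 5 tested genes with it did not pass: the ER lectin chaperone Canx (0.61), Zfand2a (0.39), Hnrnpa3 (0.08), Zfp57 (-0.22) and the survivin gene Birc5 (-0.70). A shorter form, ATTGG, then 1 base of any kind, then CCACG, was found in 15 of all 27457 promoters (0.0546%), 8 of tested genes and 3 of the 330 called higher. These 3 were the ER chaperone genes Hyou1 and Dnajb11 and Herpud1, a scaffold of ER-associated degradation. Hyou1 held it 188 and 88 bases before the start, both times on the other strand.
Hyou1 (chr8:53602632-53602931, plus strand): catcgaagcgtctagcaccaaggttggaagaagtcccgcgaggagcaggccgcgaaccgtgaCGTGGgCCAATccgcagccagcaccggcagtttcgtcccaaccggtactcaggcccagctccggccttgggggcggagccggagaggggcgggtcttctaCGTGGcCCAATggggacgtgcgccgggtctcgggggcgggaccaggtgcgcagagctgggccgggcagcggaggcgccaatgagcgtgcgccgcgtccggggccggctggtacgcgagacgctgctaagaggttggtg
A match of letters is a description and shows no binding.

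Of 18 tested ER chaperones and disulfide isomerases, which fold newly made proteins, 14 rose and 0 fell (10 to 15 with any 1 array left out). The median log2 fold change was 1.49, against 0.06 over all features tested, and the groups did not overlap for 17 members, against 35.7% of all features. Hspa5, the HSP70 chaperone BiP, had levels of 5.66, 5.71 and 5.86 on the vehicle arrays and 8.15 and 7.51 on the 2 DHT arrays with a value. Its rise was 4.25-fold (2.09 ± 0.24 log2 units, adjusted p = 0.0107, limma). Creld2, an ER stress-inducible disulfide isomerase, had levels of 2.42, 2.47 and 3.14 on the vehicle arrays and 6.27, 6.55 and 6.41 on the DHT arrays, a rise of 13.3-fold (adjusted p = 0.00303). Calr, the lectin chaperone calreticulin, had levels of 2.96, 3.21 and 3.37 on the vehicle arrays and 5.89, 5.83 and 5.55 on the DHT arrays (rise 2.58 ± 0.18). Both were among the 20 largest rises of genes well above background on every array, as was Hyou1 (2.75 ± 0.30, 2 DHT arrays), an HSP70-like exchange factor for BiP. The disulfide isomerase genes Pdia4, Pdia6 and Pdia3 rose by 2.33, 1.42 and 1.37, and Hsp90b1, the ER form of HSP90, by 1.78 ± 0.15. DnaJ co-chaperones of BiP rose by 1.72 (Dnajb11), 1.56 (Dnajb9) and 1.42 (Dnajc3). Fkbp11 and Ppib, both prolyl isomerases, rose by 2.30 ± 0.21 and 1.02 ± 0.21, and Selenos, a selenoprotein of the ER membrane, by 1.38. P4hb (1.06 ± 0.24, adjusted p = 0.0528), Canx (0.61 ± 0.22, 0.136), Ero1a (0.57 ± 0.15, 0.0666) and Sil1 (0.28 ± 0.21, 0.434) did not pass.

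Entry into the ER followed the same direction. Of 10 tested genes for ER targeting, translocation and signal peptide removal, 6 rose and 0 fell (8 without V3, 4 without D1 and 3 without any other array), with all 10 log2 fold changes above 0 and a median of 1.03. Sec61a1, the pore-forming subunit of the translocon, had levels of 0.12, 0.15 and 0.48 on the vehicle arrays and 1.50, 1.93 and 1.55 on the DHT arrays (rise 1.41 ± 0.19, adjusted p = 0.0105, limma). Ssr1 (1.62 ± 0.18) and Ssr3 (1.42 ± 0.16), subunits of the translocon-associated complex, rose most. Tram1 (1.23), Srp54a of the signal recognition particle (0.99) and Srprb of its receptor (0.91) made up the rest. N-glycosylation in the ER, which adds and trims sugar chains, had fewer calls, 4 rises and 0 falls among 16 (3 without V3, 1 without D1 and 0 without any other array, median 0.47). Mogs (0.95 ± 0.17), Dad1 (0.90 ± 0.19), Rpn1 (1.18 ± 0.26, 2 DHT arrays) and Magt1, with levels of 1.34, 1.32 and 1.47 on the vehicle arrays and 2.13, 2.49 and 2.50 on the DHT arrays (adjusted p = 0.0187, limma), passed. Mogs trims the first glucose of the chain, and the other genes belong to the oligosaccharyltransferase complex.

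All 28 tested genes of vesicle traffic between ER and Golgi had a positive log2 fold change (27 with normexp background correction), and 16 rose (17 without V3, 7 without D1 and 5 without any other array), with a median of 0.80. Lman1, the cargo receptor ERGIC-53, had levels of 2.20, 2.29 and 2.68 on the vehicle arrays and 4.35, 4.37 and 4.21 on the DHT arrays and rose 3.79-fold (1.92 ± 0.18, adjusted p = 0.00515, limma). The groups lay more than 1 log2 unit apart at their closest values. COPII genes, which form the vesicles that leave the ER, rose at Sar1b (1.82 ± 0.21), Sar1a (0.85) and Sec13 (0.94). COPI genes, for the return route, rose at Arcn1 (0.91), Copg1 (0.76) and Copb2 (0.65). Kdelr2, the receptor that returns ER residents, rose by 1.28 ± 0.15, and the p24 cargo proteins Tmed9, Tmed2 and Tmed10 by 1.05, 0.95 and 0.72. Fusion proteins of this step rose at Sec22b (1.55) and Bet1 (1.33). Golgi glycosyltransferases had 2 rises (3 without D1, 2 without V3 and 1 without any other array), 1 fall (1 without V3 or D1 and 0 without any other array) and a median of 0.04 (-0.06 with normexp) over 23 tested. Fut4, a fucosyltransferase, had levels of 4.31, 4.31 and 4.86 on the vehicle arrays and 7.31, 7.30 and 7.30 on the DHT arrays and rose 7.03-fold (adjusted p = 0.00315, limma). Mgat2, which adds a branch to N-glycans, rose by 1.07 ± 0.19, and Gcnt3, a mucin-type branching enzyme, fell by 2.22 ± 0.41 with 1 of 3 DHT arrays well above background.

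ER-associated degradation, which retrieves misfolded proteins to the cytosol, rose in 7 of 12 tested members with 0 falls (4 without V3 or D1, 2 without D2 and 3 without any other array, median 0.64). Herpud1 had levels of 3.37, 3.60 and 3.48 on the vehicle arrays and 5.26, 5.26 and 5.08 on the DHT arrays (rise 1.72 ± 0.15, adjusted p = 0.00443, limma). Sel1l, the adaptor of the HRD1 ligase, rose by 1.38 ± 0.18, and Vcp, the ATPase that pulls substrates out of the membrane, by 1.11 ± 0.15. Edem2 (1.06, 2 vehicle arrays), Derl1 (0.70), Ufd1 (0.67) and Ubxn4 (0.61) also rose. Proteasome subunits, which destroy those substrates, all had positive values (24 of 24), 0.23 to 1.02, with a median of 0.65. Of them 8 rose, with 10 without V3, 3 without D1, 2 without D3, 1 without V1 and 0 without V2 or D2. Psmb1, a subunit of the catalytic core, had levels of 3.70, 3.64 and 3.87 on the vehicle arrays and 4.74, 4.73 and 4.80 on the DHT arrays (rise 1.02 ± 0.14, adjusted p = 0.0111), and the others were Psma1, Psma2, Psma5, Psmb3 and Psmb6 of the core and Psmd1 and Psmd6 of the cap, at 0.66 to 0.99.

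Genes of the signalling arm of the unfolded protein response had falls and no rises. The list holds sensors of ER load and stress genes downstream of them, and no sensor was among the falls. Of 12 tested, 0 rose and 3 fell (4 without V3, 0 without D2 and 1 without any other array), and the median was -0.44. Trib3, a pseudokinase induced downstream of ATF4, had levels of 3.45, 3.51 and 2.78 on the vehicle arrays and 1.56, 1.52 and 1.71 on the DHT arrays, a fall of 1.65 ± 0.23 (adjusted p = 0.0111, limma). The stress transcription factor gene Atf3 (-1.62 ± 0.27, adjusted p = 0.0196) and Bbc3, which encodes the cell death protein PUMA (-0.91 ± 0.15, 0.0166), fell as well. The pro-apoptotic factor gene Ddit3 (CHOP) stood at 0.16 ± 0.25 (adjusted p = 0.712) and Atf4 at 0.46 ± 0.23 (0.265), and neither passed. Eif2ak3, the PERK kinase, lay lower on all 3 DHT arrays without passing (-0.72 ± 0.17, 0.0513). On the same arrays 14 of 18 chaperone genes rose and 0 of 12 signalling genes did.

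**Figure D2:**
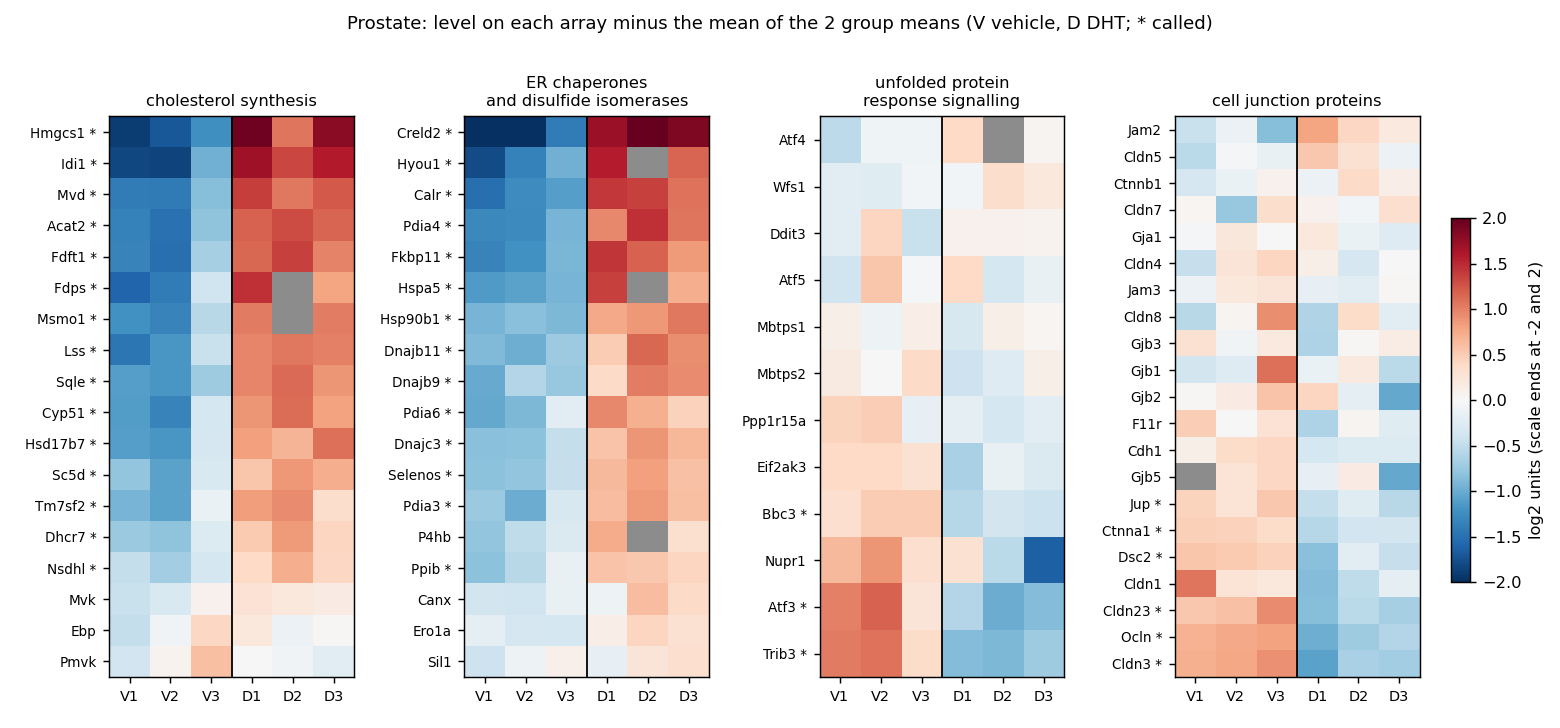
Level of the tested members named in the picture on each of the 6 prostate arrays (V1 to V3 vehicle, D1 to D3 DHT) minus the mean of the vehicle and DHT group means, in log2 units, for 4 gene lists, with genes in order of log2 fold change. Asterisks mark genes called by limma and grey cells are outlier spots left out. Cholesterol and chaperone genes turn from blue to red between V3 and D1, and the called junction genes and Trib3, Atf3 and Bbc3 turn from red to blue.

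Cholesterol synthesis had the highest median of the 64 lists. Of 19 tested genes of the pathway 16 rose and 0 fell (16 without V3, 8 without V1 and 9 without any other array), with a median of 1.88 (1.74 with quantile normalization). Acat2, which makes acetoacetyl-CoA at the entry of the pathway, rose by 2.44. Hmgcs1, which makes HMG-CoA, had levels of 2.47, 2.67 and 3.14 on the vehicle arrays and 6.31, 5.44 and 6.17 on the DHT arrays and rose 9.27-fold (adjusted p = 0.00486, limma). Down the pathway, Mvd (2.45), Idi1 (3.09), Fdps (2.25, 2 DHT arrays) and Fdft1 (2.34) rose between mevalonate and squalene, and Sqle (1.99), Lss (2.03), Cyp51 (1.88), Msmo1 (2.07, 2 DHT arrays), Nsdhl (1.01), Hsd17b7 (1.74), Tm7sf2 (1.42), Sc5d (1.44) and Dhcr7 (1.21) between squalene and cholesterol. Of the tested members 3 did not pass: Mvk (0.44 ± 0.18, adjusted p = 0.176), Pmvk (-0.20 ± 0.26, 0.663) and Ebp (0.08 ± 0.25, 0.859).

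Genes that sense or move sterols split. Insig1, which holds the SREBP transcription factors in the ER when sterols are plentiful and is itself an SREBP target, rose by 1.54 ± 0.27 (limma). Insig2, the paralogue that does not depend on SREBP in the same way, had levels of 1.93, 1.87 and 2.12 on the vehicle arrays and 0.81, 0.83 and 0.98 on the DHT arrays, a fall of 1.10 ± 0.15 (adjusted p = 0.0105). DHT arrays lay below all vehicle arrays for Insig2 and above them for Insig1. Srebf2 (0.85 ± 0.29, adjusted p = 0.115) and the export pumps Abca1 (-0.15 ± 0.31) and Abcg1 (-0.15 ± 0.26, 2 vehicle arrays) did not pass. In all, 2 of 11 tested genes of this list rose and 1 fell (3 without V3 and 0 without any other array for rises, 0 without D2 and 1 without any other array for falls).

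Fatty acid genes rose in part, 5 of 19 with 0 falls (8 without V3, 4 without D1 or D3, 3 without V1 or D2 and 2 without V2). Scd2, a stearoyl-CoA desaturase, had levels of 2.52, 2.84 and 2.55 on the vehicle arrays and 5.46, 5.61 and 5.34 on the DHT arrays and rose 7.12-fold (adjusted p = 0.00303, limma). Elovl6, which lengthens palmitate, rose by 1.56 ± 0.22, Acsl3, an acyl-CoA synthetase, by 1.33 ± 0.16, and Mlxipl, the glucose-responsive factor ChREBP, by 1.58 ± 0.25. Thrsp (1.90 ± 0.43) was the other rise. In phospholipid and triglyceride synthesis 4 of 14 rose (3 without V3, 2 without D3, 1 without V2 or D1 and 0 without V1 or D2): Cidec (1.60), Pcyt2 (1.44), Gpam (1.01) and Agpat1 (0.67). Cpt1a, the entry enzyme of fatty acid oxidation, fell, with levels of 3.04, 2.69 and 2.83 on the vehicle arrays and 0.67, 0.85 and 1.26 on the DHT arrays (adjusted p = 0.00618), while Cpt2, the next step, rose by 1.18 ± 0.20.

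Adipocyte markers moved with these lipid genes. Of 16 tested, 6 rose and 0 fell (7 without V3 or D3, 3 without D1, 1 without V2 or D2 and 0 without V1), with a median of 1.05, and 14 had positive values. Their mean level was -0.46 to -0.08 on vehicle and 0.25 to 0.82 on DHT arrays. Fabp4, the fatty acid binding protein of fat cells, had levels of 2.02, 1.90 and 2.25 on the vehicle arrays and 3.52, 3.45 and 3.11 on the DHT arrays (rise 1.30 ± 0.18, adjusted p = 0.0112, limma), and Adipoq (adiponectin), Cd36, Cfd (adipsin), Cidec and Pparg rose by 1.43, 1.18, 1.27, 1.60 and 1.16. All 16 tested markers were well above background on every array. Cidec is also a member of the phospholipid and triglyceride list. The part of fat cells in the lipid results was not tested.

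**Figure D3:**
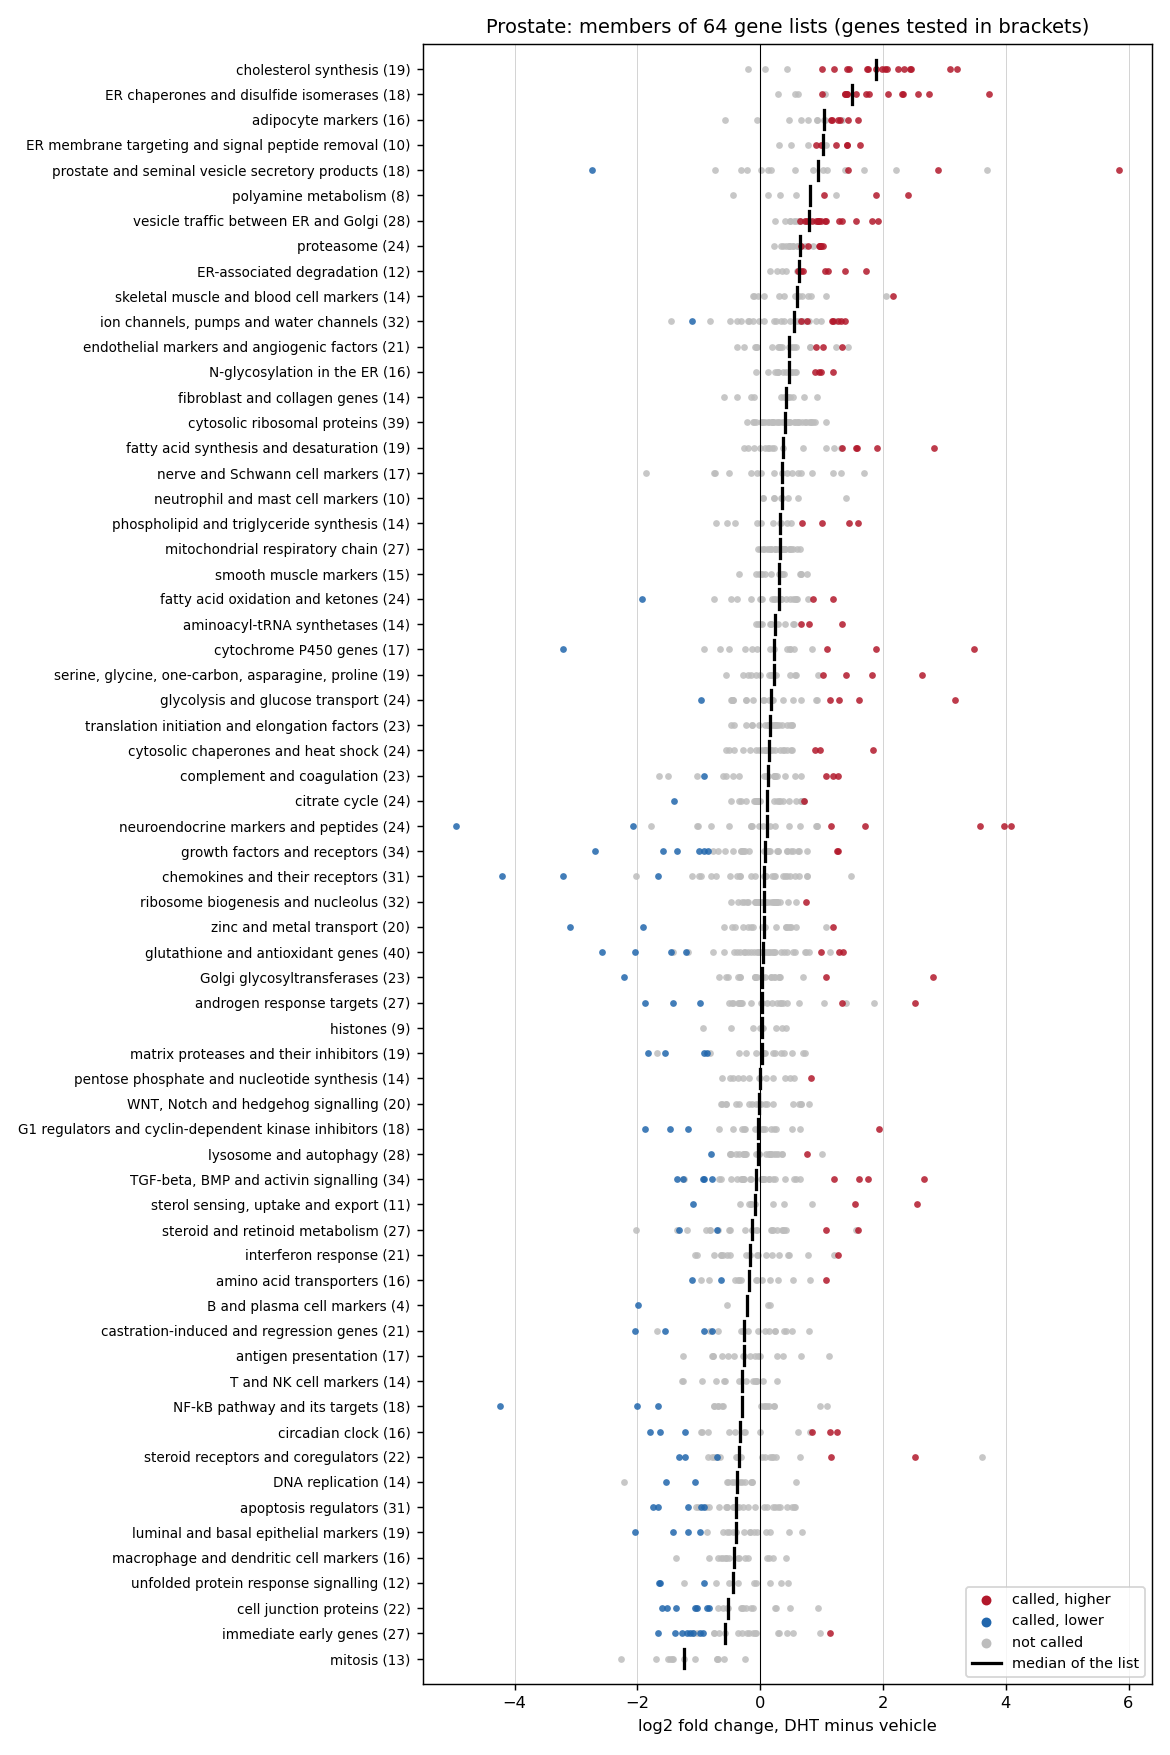
Log2 fold change (DHT minus vehicle) of the tested members of 64 gene lists in prostate, ordered by the list median, which the black bar marks. Red and blue points passed limma's test and grey points did not. Cholesterol synthesis (median 1.88) and ER chaperones (1.49) lie at the top and mitosis (-1.24, with no called member) at the bottom.

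Amino acid and polyamine supply rose at single enzymes. Of 8 polyamine genes 3 rose (2 to 4 with any 1 array left out). Srm, spermidine synthase, had levels of 2.22, 2.22 and 2.56 on the vehicle arrays and 4.77, 4.72 and 4.72 on the DHT arrays and rose 5.29-fold (adjusted p = 0.00303, limma), Sms, spermine synthase, rose by 1.89 ± 0.23 and Odc1, the first enzyme, by 1.04 ± 0.18. Prostatic fluid is known for its high polyamine content. Gpt2, the mitochondrial alanine aminotransferase, had levels of -0.56, 0.40 and -0.74 on the vehicle arrays and 2.45, 2.23 and 2.30 on the DHT arrays, a rise of 6.18-fold. Cth, which makes cysteine, rose by 1.82 ± 0.19, Mat2a, which makes S-adenosylmethionine, by 1.40 ± 0.17, and Psph, the last enzyme of serine synthesis, by 1.03 ± 0.17. Those 4 rises were among 19 serine, glycine, one-carbon, asparagine and proline genes, with 0 falls (3 to 4 with any 1 array left out). Aminoacyl-tRNA synthetases rose in 3 of 14 (Wars1 1.34, Tars1 0.79 and Hars1 0.66, with 2 without V3, 1 without V1 or D1 and 0 without any other array).

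The ribosome itself showed no calls. Of 39 cytosolic ribosomal protein genes 0 passed (limma, 5 at an unadjusted p under 0.05, 1 call without V3), with a median of 0.40 that became -0.01 with quantile normalization. Of 32 ribosome biogenesis genes 1 passed, Bysl (0.75 ± 0.16), with 1 without V3 and 0 without any other array. Respiratory chain genes had 0 calls of 27 (limma, 7 at an unadjusted p under 0.05, 1 call without V3, median 0.32), and 25 of the 27 had positive values. In glycolysis 4 of 24 rose and 1 fell (4 without V3, 3 without D1 or D3 and 2 without any other array for rises, 1 without V3 or D3 and 0 without any other array for falls). That is 20.8% called, against 9.67% of all features. Pfkfb4, a bifunctional enzyme that sets fructose 2,6-bisphosphate, had levels of -4.13 and -4.44 on the 2 vehicle arrays with a value and -1.32, -1.03 and -0.99 on the DHT arrays (rise 9.02-fold, adjusted p = 0.00410), and its paralogue Pfkfb2 rose by 1.13 ± 0.19. Hk2, the hexokinase of growing cells, rose by 1.61 ± 0.16 and the glucose transporter gene Slc2a1 by 1.29 ± 0.27, while Hk3, a hexokinase known from leukocytes, fell by 0.97 ± 0.23. Idh1 fell (-1.40 ± 0.24) and Mdh2 rose (0.71 ± 0.17) among 24 citrate cycle genes (1 without V3 or D2 and 0 without any other array for falls, 3 without V3 and 0 without any other array for rises). The 8.33% called in that list lay below the 9.67% of all features.

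Of 18 tested genes for prostatic and seminal vesicle secretory products 3 rose and 1 fell, or 22.2% called against 9.67% of all features. The median was 0.95, 0.58 with normexp and 0.59 with quantile normalization (rises were 7 without V3, 1 without D2 and 2 without any other array). Besides Pbsn, the kallikrein-family gene Klk1c9 had levels of 4.49, 4.61 and 5.55 on the vehicle arrays and 6.53, 6.14 and 6.24 on the DHT arrays (rise 1.42 ± 0.31, adjusted p = 0.0379, limma). Rat kallikreins are close copies of each other, and whether the probe separates them was not tested. Scgb2a1, a secretoglobin, was not well above background on any vehicle array and was at least 3.23-fold higher with DHT. It entered the fit through the DHT arrays alone, so its place among the 3 rises is a description with no test. Rnase1, a secreted ribonuclease, fell by 2.74 ± 0.27 with 1 of 3 DHT arrays well above background. Other members lay higher without passing, among them Andpro (3.69 ± 0.92, adjusted p = 0.0670) and the seminal vesicle protein gene Svs4 (2.21 ± 0.83, 0.148).

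Peptide hormone genes changed in both directions and by large amounts. Of 24 neuroendocrine markers and peptides 5 rose and 2 fell (4 to 5 with any 1 array left out for rises, 1 without V1 or D2 and 2 without any other array for falls). Rln1, which encodes relaxin, a hormone the rat prostate is known to make, had levels of -3.64, -3.69 and -4.46 on the vehicle arrays and -0.39, 0.07 and 0.44 on the DHT arrays and rose 15.7-fold (adjusted p = 0.00384, limma). Gal, which encodes galanin, had levels of -3.93, -3.25 and -2.94 on the vehicle arrays and -0.31, -0.30 and 1.26 on the DHT arrays, a rise of 12-fold. Nppc (C-type natriuretic peptide) was at least 4.08-fold higher, from vehicle levels not well above background. Nppc entered the fit through the DHT arrays alone, so its place among the 5 rises is a description with no test. Adm, which encodes adrenomedullin, rose by 1.71 ± 0.26. The endothelin genes Edn2 and Edn1 changed in opposite directions. Edn2 rose by 1.16 ± 0.15. Edn1 fell, with levels of 0.92, 1.12 and 0.04 on the vehicle arrays and -1.43, -1.33 and -1.40 on the DHT arrays (adjusted p = 0.0118). Calcb, a calcitonin gene-related peptide gene, had levels of 4.00, 2.05 and 2.70 on the vehicle arrays and -2.64, -0.82 and -2.63 on the DHT arrays and was 30.9-fold lower (adjusted p = 0.0105). Its levels spread by more than 1 log2 unit within both groups, which did not overlap.

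Genes for ion and water transport rose in part, with 25% of the list called against 9.67% of all features. Of 32 ion channels, pumps and water channels 7 rose and 1 fell (7 without V3, 3 without D1, 2 without D3 and 0 without any other array for rises, 1 without V2 or V3 and 0 without any other array for falls, median 0.55). The rises included the sodium pump subunit Atp1b1 (1.38, 2 DHT arrays), the epithelial sodium channel subunit Scnn1g (1.18 ± 0.18), the anion exchanger Slc26a4 (1.27 ± 0.24), carbonic anhydrase Car3 (1.31) and the water channel Aqp1 (0.76). Kcnn4, a calcium-activated potassium channel, fell (-1.10 ± 0.26). Kcnh2, a voltage-gated potassium channel outside that list, had levels of -2.75, -2.13 and -2.98 on the vehicle arrays and 0.76, 0.51 and 1.12 on the DHT arrays and rose 10.7-fold (adjusted p = 0.00407, limma). The prostate is known for its zinc content, and Slc30a2, a vesicular zinc exporter, had levels of 5.55, 5.14 and 5.10 on the vehicle arrays and 1.82, 2.63 and 2.04 on the DHT arrays, a fall of 3.10 ± 0.26 log2 units (adjusted p = 0.00410). Slc39a7, which releases zinc from the ER, rose by 1.18 ± 0.18, and Slc40a1, the iron exporter ferroportin, fell by 1.91 ± 0.24 with 2 of 3 DHT arrays well above background.

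Chemokine genes were among the largest falls. Cxcl1, a neutrophil chemokine, had levels of 1.22, 0.57 and -0.07 on the vehicle arrays and -3.61, -3.76 and -3.52 on the DHT arrays and was 18.4-fold lower with DHT (adjusted p = 0.00383, limma). Cxcl2 was 9.26-fold lower and Ubd, a cytokine-induced ubiquitin-like modifier, 18.8-fold. Ubd varied more among DHT arrays, at levels of 6.89, 6.90 and 7.06 on the vehicle arrays and 2.27, 4.49 and 1.38 on the DHT arrays. Cx3cl1 (fractalkine) also fell, by 1.66 ± 0.26 on its brightest probe and by 3.10 on another. The other 28 of 31 chemokine and receptor genes did not pass, and the list median was 0.06 (-0.32 with normexp, -0.05 without V3). The 9.68% called in this list was about the share over all features, 9.67%. In the NF-kB list 3 of 18 fell and 0 rose: Nfkb2 (p100), with levels of 3.56, 3.07 and 2.91 on the vehicle arrays and 1.10, 1.29 and 1.15 on the DHT arrays, the apoptosis inhibitor gene Birc3 (-1.67 ± 0.22) and Ubd (2 to 4 with any 1 array left out, and 1 rise without V2).

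Of 4 leukocyte lists 1 marker passed, Blnk, a B cell adaptor, which fell by 1.99 ± 0.21 among 4 B and plasma cell markers and passed in all 6 fits with 1 array left out. Among macrophage and dendritic cell markers 0 of 16 passed (limma, 4 at an unadjusted p under 0.05), with a median of -0.43 and mean levels of 2.77 to 3.36 on vehicle and 2.65 to 2.94 on DHT arrays. T and NK cell markers had 0 of 14 (1 unadjusted, median -0.29, -0.65 with normexp and -0.54 without V3) and neutrophil and mast cell markers 0 of 10 (0 unadjusted, median 0.35, 0.03 with normexp and 0.20 without V3). Their part in the falls of the chemokine genes was not tested.

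Immediate early genes, the transcription factors and phosphatases that cells switch on within minutes of a stimulus, fell in 8 of 27 and rose in 1 (9 without V3, 4 without V1 or D3, 3 without D1, 2 without D2 and 1 without V2 for falls, 1 without V3 and 0 without any other array for rises). The median was -0.58. Junb had levels of 3.75, 3.49 and 3.54 on the vehicle arrays and 1.89, 2.03 and 1.85 on the DHT arrays, a fall of 1.67 ± 0.15 (adjusted p = 0.00484, limma). Zfp36l1 (-1.38, 2 vehicle arrays), Ier3 (-1.28), Dusp5 (-1.19), Klf6 (-1.14), Jun (-1.10), Fosl2 (-0.98) and Klf10 (-0.93) fell too. Nr4a1, an orphan nuclear receptor, rose (1.14 ± 0.26, adjusted p = 0.0454). The letters TGANTCA of an AP-1 site were found in 1 of 5 promoters of the genes that fell. Among all tested members of the list they were in 1 of 18 promoters (5.56%). They were in 5.71% of promoters of tested genes, 7.97% of those called lower and 7.33% of all promoters.

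Apoptosis regulators fell in part (16.1% called, against 9.67% of all features), and no mitosis gene passed. Of 31 apoptosis regulators 5 fell and 0 rose (7 without V3, 3 without D1, 2 without V2 and 1 without any other array, median -0.39). They were of both kinds: Bbc3 and Apaf1 (-1.18 ± 0.21), which promote death, and Bcl2 (-1.75 ± 0.33, 2 of 3 DHT arrays well above background), Mcl1 (-0.96 ± 0.14) and Birc3, which oppose it. All 13 mitosis genes had negative values, -2.26 to -0.25, with a median of -1.24, and the groups did not overlap for 11, against 35.7% of all features. None passed (limma, 10 at an unadjusted p under 0.05, against 6986 of 25370 features, 2 calls without D3). Ccnb1, the mitotic cyclin, came closest, at 1.38, 0.60 and 0.70 on the vehicle arrays and -0.50, -1.34 and 0.02 on the DHT arrays (-1.50 ± 0.39, adjusted p = 0.0621). Their mean level was -0.38 to 0.31 on vehicle and -1.81 to -0.71 on DHT arrays. In DNA replication Lig1 (-1.05 ± 0.18) and the chromatin assembly gene Chaf1b (-1.53 ± 0.27) fell among 14, with 2 without V3 or D3 and 0 without any other array. The 14.3% called in that list lay near the 11.5% of genes with a symbol. Of 18 G1 regulators 1 rose and 3 fell (1 without V3 and 0 without any other array for rises, 2 to 3 with any 1 array left out for falls), with a median of -0.03 (-0.07 with quantile normalization). Btg2, an antiproliferative gene, fell by 1.88 ± 0.15, with levels of 5.07, 5.17 and 4.85 on the vehicle arrays and 3.25, 3.06 and 3.16 on the DHT arrays, Gadd45b fell by 1.47 ± 0.16 and the kinase inhibitor gene Cdkn2b by 1.17 ± 0.19, and Gadd45g rose by 1.93 ± 0.36.

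Genes that hold epithelial cells together fell in part, with 31.8% of the junction list called against 9.67% of all features. Of 22 junction genes 7 fell and 0 rose (6 without V3 and 3 without any other array), with a median of -0.53. Cldn3, a claudin of tight junctions, had levels of 6.51, 6.57 and 6.71 on the vehicle arrays and 4.73, 5.15 and 5.11 on the DHT arrays (fall of 1.60 ± 0.17, adjusted p = 0.00624, limma), and Ocln, occludin, had levels of 4.86, 4.91 and 4.96 on the vehicle arrays and 3.18, 3.45 and 3.57 on the DHT arrays (fall of 1.51 ± 0.16). Cldn23 (-1.37) belongs to the same junction. Ctnna1 (-0.87), Jup (-0.84) and Dsc2 (-1.03) belong to adherens junctions and desmosomes. Cxadr, an adhesion protein of epithelial junctions outside the list, had levels of 3.01, 3.42 and 2.89 on the vehicle arrays and 0.15, 0.20 and 0.37 on the DHT arrays and was 7.31-fold lower (adjusted p = 0.00303). Keratin genes fell at Krt8 (-0.99 ± 0.21) and Krt19 (-1.41 ± 0.22), which are expressed in luminal cells, and at Krt14 (-1.18 ± 0.23) and Krt17 (-2.03 ± 0.40, 2 of 3 DHT arrays well above background), which are basal. These 4 falls were among 19 luminal and basal markers (median -0.40, -0.24 without V3), with 3 without V3, 0 without D3 and 1 without any other array.

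The other epithelial markers of that list did not pass. Cdh1 (E-cadherin) stood at -0.60 ± 0.15 (adjusted p = 0.0554, limma), Epcam at -0.51 ± 0.17 (0.115), Krt5 at -0.16 ± 0.14 (0.505) and Krt18, the partner of Krt8, at 0.48 ± 0.36 (0.444). Stromal markers had 0 calls, with medians of 0.31 over 15 smooth muscle (0.06 with quantile normalization, 0.13 without V3) and 0.42 over 14 fibroblast and collagen genes (0 and 1 at an unadjusted p under 0.05, limma, and 1 fibroblast call without D3). Mean levels of the luminal and basal list were 3.54 to 4.08 on vehicle and 2.67 to 3.27 on DHT arrays. Those of the smooth muscle list were 2.04 to 2.57 and 1.98 to 3.00. The part of cell composition in the falls of epithelial genes was not tested.

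Growth factor and receptor genes changed in both directions, with 23.5% of the list called against 9.67% of all features. Of 34 growth factors and receptors 2 rose and 6 fell (1 without V3, D1 or D3 and 0 without any other array for rises, 4 without V3 and 2 without any other array for falls). Erbb3, a receptor for neuregulins, had levels of -0.87, -1.01 and -0.84 on the vehicle arrays and -2.87, -2.33 and -2.28 on the DHT arrays, a fall of 1.59 ± 0.20 (adjusted p = 0.00887, limma). Met, the receptor of hepatocyte growth factor, fell by 2.68 ± 0.37 with 1 of 3 DHT arrays well above background. The ligand genes Hbegf (-1.36), Nrg1 (adjusted p = 0.0461, limma) and Pdgfa (-0.92) and Errfi1, a feedback inhibitor of EGF receptors (-0.85), fell as well. Igf1, known as a stromal product of this gland, rose by 1.28 ± 0.22 on its brightest probe and by 1.21, 0.43 and 0.32 on its others. Igf2 rose by 1.25 ± 0.29.

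In TGF-beta and BMP signalling 4 of 34 rose and 5 fell (4 without V3, 3 without D1, 1 without V1 and 2 without any other array for rises, 4 without V3, 2 without D1 and 0 without any other array for falls). Id4, an inhibitor of basic helix-loop-helix factors, had levels of 3.85, 4.25 and 3.95 on the vehicle arrays and 6.63, 6.60 and 6.81 on the DHT arrays and rose 6.34-fold (adjusted p = 0.00303, limma), and its relative Id1 rose by 1.61 ± 0.27. Gdf10 (1.75 ± 0.20, 2 vehicle arrays) and the BMP receptor gene Bmpr1b (1.20 ± 0.19) rose. Bmp2 (-1.36), Tgfb3 (-0.92), Tgfbr2 (-0.78, 2 vehicle arrays), Tgif1 (-1.25) and Gdf15 (-0.93) fell. TGF-beta is known as a mediator of cell death in the castrated gland. In a list of castration-induced and regression genes 4 of 21 fell and 0 rose (5 without V3, 2 without D1, 1 without V2 or D3 and 0 without V1 or D2). That is 19.0% called, against 9.67% of all features. The list median was -0.26, and 8 of the 21 values were positive. The falls were the glutathione transferase gene Gstm1 (-2.04 ± 0.31) and the urokinase gene Plau (-1.55 ± 0.29) beside Tgfb3 and Tgfbr2.

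The circadian clock had calls in both of its arms, 3 rises and 3 falls of 16 (3 without V3, 1 without D1 or D2 and 0 without any other array for rises). Bmal1, the activator, had levels of -0.06, -0.28 and -0.39 on the vehicle arrays and 0.61, 0.99 and 1.06 on the DHT arrays (rise 1.13 ± 0.19, adjusted p = 0.0180, limma). Its target genes Per3 (-1.64 ± 0.16), Bhlhe40 (-1.79 ± 0.22) and Nr1d1 (-1.22 ± 0.27) fell, and Nfil3 (1.25 ± 0.20) and Cry1 (0.84 ± 0.18, 2 vehicle arrays) rose. Per3 had levels of -2.02, -1.86 and -1.80 on the vehicle arrays and -3.48, -3.38 and -3.73 on the DHT arrays, with no overlap. The labels give the time after dosing as 16 h for both groups and give no hour of the day, so a difference in the hour of collection was not tested.

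Endothelial markers and angiogenic factors had 3 rises and 0 falls of 21 (2 without V3, 1 without V2 or D1 and 0 without any other array, median 0.47, 0.08 with normexp). The 14.3% called lay near the share over all genes with a symbol, 11.5% (9.67% of all features). Vegfa, the main endothelial growth factor, had levels of -0.48, -0.26 and -0.30 on the vehicle arrays and 0.89, 0.51 and 0.32 on the DHT arrays (rise 0.92 ± 0.19, adjusted p = 0.0349, limma), Nos3, endothelial nitric oxide synthase, rose by 1.34 ± 0.25 and the endothelial factor gene Sox18 by 1.02 ± 0.22. Of the 6 fits with 1 array left out, Vegfa passed in 0, Sox18 in 1 and Nos3 in 2. Among 40 glutathione and antioxidant genes the peroxiredoxin genes Prdx6 (1.36 ± 0.16) and Prdx5 (1.29 ± 0.22, 2 DHT arrays) and Txn1 (0.99 ± 0.17, 2 DHT arrays) rose, with 3 without V3 and 1 without any other array. Gpx2, with levels of -0.30, -0.38 and -1.06 on the vehicle arrays and -3.45, -2.77 and -3.22 on the DHT arrays, Gstm1, Gstm2 (-1.21 ± 0.28) and the heme oxygenase gene Hmox1 (-1.45 ± 0.17) fell, with 4 without V3, 2 without V1 or D2 and 3 without any other array. Gstm1 and Gstm2 are close paralogues, and whether their probes separate them was not tested.

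Some genes were measurable in only 1 group. With DHT, 63 features were well above background on all 3 arrays and on no vehicle array, 13 of them with a symbol, and 68 showed the reverse, 17 with a symbol. Mc5r, a melanocortin receptor of exocrine glands, was at least 6.21-fold higher, and the lysosomal membrane gene Lamp3 at least 4.08-fold higher. Cesl1 and Glyatl2 were at least 2.63-fold and at least 2.41-fold higher. Features of this kind entered the fit through 1 group alone, so their bounds are a description with no test. The 2454 calls include 40 of the features measurable with DHT only and 50 of those measurable with vehicle only. Called genes of this kind also count in their lists. Such bounds set the mean of the bright group against, per array, the larger of the dim probe's own value and the lowest signal well above background. Bdnf, a neurotrophin gene, was at least 8.16-fold lower with DHT and Dab1 at least 7.22-fold lower on 2 vehicle arrays. Syt12 was at least 2.86-fold lower, the hair-type keratin gene Krt75 at least 2.48-fold, Gramd2a at least 2.26-fold and Camk2n2 at least 2.36-fold.

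The remaining large changes of well-measured genes belonged to several classes. Abo3, of the ABO glycosyltransferase family, had levels of -1.55, -1.50 and -0.36 on the vehicle arrays and 3.12, 2.73 and 3.11 on the DHT arrays and rose 17.4-fold (adjusted p = 0.00410, limma). Trim54 rose 13.3-fold, the carboxylesterase gene Ces1e 8.27-fold, Csap1 6.7-fold, Prom2, a membrane protein of epithelial protrusions, 6.36-fold, and the chloride channel family gene Clic3 6.23-fold. Vehicle array 3 had the highest vehicle level for each of these 6 genes, and all 6 also passed without it. On the side of falls stood Sfnl1 (8.05-fold, 2 vehicle arrays), the transporter gene Flvcr2 (7.92-fold, 2 vehicle arrays), the small GTPase gene Rnd1 (7.18-fold), Mroh2b (7.17-fold, 2 vehicle arrays) and the efflux pump gene Abcg2 (6.23-fold). Kng1 and Kng2, which encode kininogens, were 7-fold and 7.03-fold lower with values within 0.113 log2 units of each other on every array, and whether their probes separate these paralogues was not tested. Neurl3 (5.25-fold), the transglutaminase gene Tgm1 (5.2-fold), Niban1 (5.17-fold), Sectm1b (5.05-fold), the adhesion gene Ceacam1 (4.99-fold) and the spectrin gene Sptb (4.63-fold) completed the 20 largest falls.

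Skin and forebrain of castrated males, treated and dosed in the same way, gave a test of how far the prostate response differed from that of other tissues. In skin, the 14 skeletal muscle and blood cell markers had a median of 3.37 between DHT and vehicle, against 0.61 in prostate and -0.93 in forebrain. Whether the skin groups differed in tissue content was not tested, and the skin effects below carry that limit. Skin had 6 arrays and forebrain 5, after forebrain vehicle array 3, which its label gives as failing quality control, was left out. The contrast was the prostate effect minus the mean of the skin and forebrain effects, with slide as a random block (limma). It was called for 1524 of 25370 features (6.01%), 971 with a higher and 553 with a lower effect in prostate. This contrast and the one within prostate share the 6 prostate arrays. The count was 621 without V1, 859 without V2, 1380 without V3, 774 without D1, 946 without D2 and 993 without D3. Fut4 had the smallest adjusted p, with a difference of 3.48 ± 0.21 (adjusted p = 5.81e-06), against effects of -0.40 in skin and -0.92 in forebrain.

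Cholesterol and ER chaperone genes differed at most of their members. For cholesterol synthesis 17 of 19 genes had a higher effect in prostate and 0 a lower one, against list medians of -0.55 in skin and -0.09 in forebrain. For ER chaperones the count was 15 of 18 (medians -0.15 and 0.01), for ER targeting 7 of 10, for ER-Golgi traffic 9 of 28, for ER-associated degradation 6 of 12 and for the proteasome 7 of 24. Creld2 differed by 3.88 ± 0.35 (adjusted p = 6.43e-05, limma) and Hmgcs1 by 3.62 ± 0.29 (2.57e-05). Adipocyte markers differed at 6 of 16. Immediate early genes had a lower effect in prostate at 7 of 27, and the clock a higher effect at 2 and a lower one at 4 of 16. No mitosis gene passed (0 of 13, limma), and their median was -1.71 in skin and -0.12 in forebrain. Junction genes differed at 1 higher and 1 lower of 22, with medians of -0.43 and -0.26.

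**Figure D4:**
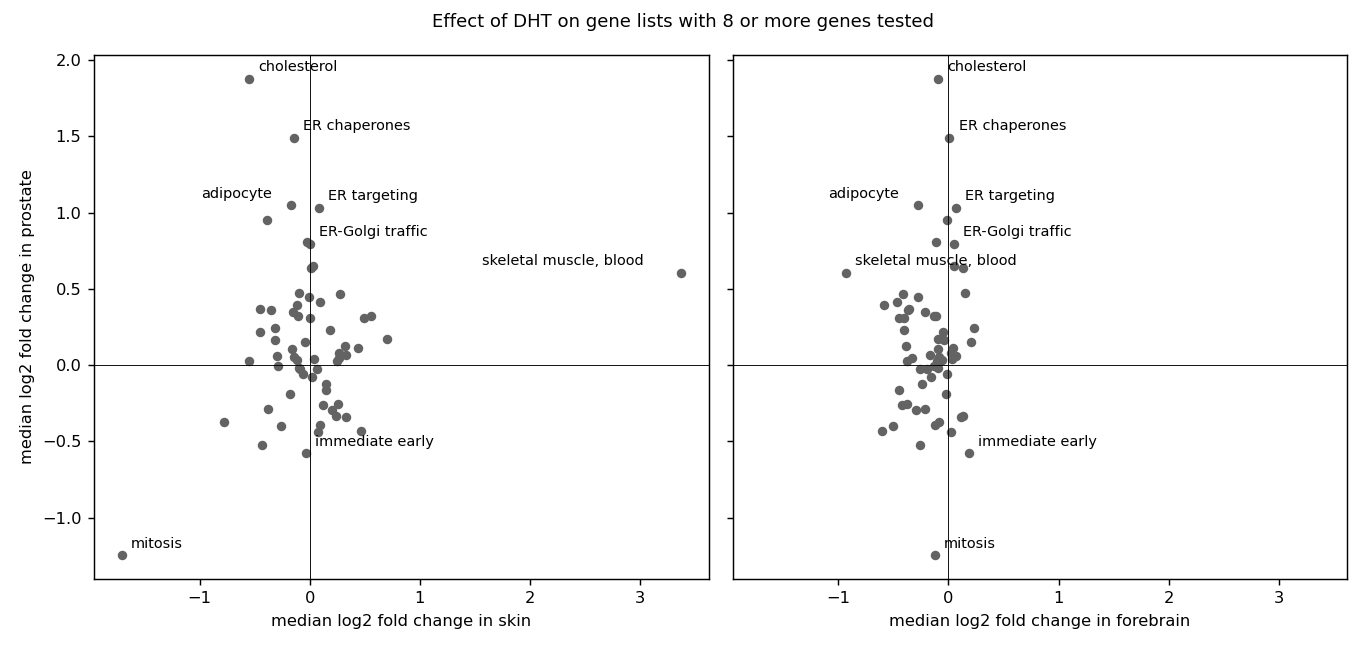
Median log2 fold change (DHT minus vehicle) of each gene list with 8 or more tested genes in prostate, against the same median in skin (left) and forebrain (right), each point 1 list. Cholesterol synthesis and the ER lists lie high in prostate, with cholesterol synthesis at 1.88 against -0.55 in skin and -0.09 in forebrain, while mitosis lies at -1.24 in prostate, -1.71 in skin and -0.12 in forebrain. Skeletal muscle and blood cell markers lie at 3.37 in skin against 0.61 in prostate and -0.93 in forebrain.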

How the data were processed

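One-colour Agilent arrays were read with Feature Extraction, version 10.5.1.1 in the headers of the deposited files and 10.1 in the submitters' processing notes, which also name limma. Their processed-signal intensity was deposited after background correction by the scanner software. From it, log2 intensity minus each array's 75th percentile was computed, control and outlier spots were left out, and a probe was kept if 3 or more prostate arrays measured it well above background. The brightest of several probes of a gene was used. Of 41012 probes, 10813 matched 1 symbol by accession in RefSeq's GRCr8 table and 30199 had none. DHT and vehicle were compared with limma 3.58.1 (R 4.3.3) and Benjamini-Hochberg adjustment at 0.05. The same fit was also run on simulated data with means and spreads taken from these arrays, and its outcome is not given here. The tissue difference was fitted over 17 arrays with slide as a random block (correlation 0.145).

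Named genes were Pbsn and Fkbp5, the 20 largest rises and falls among called genes that did not overlap and were well above background on all 6 arrays, up to 4 called members per list (1 where none passed), up to 6 genes measurable in 1 group only in each direction, and 6 by the tissue difference. Further list members and genes were named after their values were seen. The members and the 64 lists were chosen with earlier results of these data known. Alternatives were other background correction (normexp on median signal, since the files hold no mean signal), scaling, filters, array weights, replicate block and leaving out each array. Promoter motifs were searched as plain letters on both strands. Ovary arrays were not used here. Some list members that count in the totals are not reported here by name.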

Additional observations from a re-analysis of the deposited data

Results flagged for a closer look

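In 6 genes, ranked among genes with a symbol only, the DHT effect in prostate differed most clearly, by adjusted p, from the mean of the effects in skin and forebrain (limma, 17 arrays). Fut4 differed by 3.48 ± 0.21 log2 units (adjusted p = 5.81e-06), with effects of -0.40 in skin and -0.92 in forebrain. Srm, spermidine synthase, differed by 2.47 ± 0.19 (2.47e-05), with -0.05 and -0.08. In cholesterol synthesis Hmgcs1 differed by 3.62 ± 0.29 (2.57e-05), with -0.73 in skin and -0.09 in forebrain, and Mvd by 2.76 ± 0.23 (4.34e-05), with -0.23 and -0.39. In ER folding Fkbp11 differed by 2.58 ± 0.23 (6.3e-05), with -0.20 and -0.36, and Creld2 by 3.88 ± 0.35 (6.43e-05), with -0.49 and 0.19. All 3 DHT prostate arrays lay above all 3 vehicle arrays for each of the 6 genes, and the groups did not overlap in 35.7% of all features. The ranking used these same prostate arrays, so the separation is a description with no test. With 3 samples per group, no group was large enough to be searched for single outlying samples.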

How the results depend on the processing

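Against 2454 calls (1294 higher, 1160 lower), quantile normalization gave 2363, all 6 arrays required above background 2964 and outlier spots kept 2103, of which 681 were lower (67.6% higher, against 52.7%). Normexp gave 648 (387 higher, 261 lower), no filter on dim probes 655 (365 and 290), the array median 1564 (651 lower) and array weights 4749 (2709 and 2040). Array numbers gave no pairing, with correlations of same-numbered deviations of -0.34, -0.17 and -0.07, and the fit with replicate number as a block called 0 features (0 higher, 0 lower, 5123 at an unadjusted p under 0.05, limma). Leaving out 1 array gave 648 to 2786 calls in all, 328 to 1694 higher and 320 to 1092 lower. Of the main calls, 2085 were shared with quantile normalization, 647 with normexp and 1977 with the fit without vehicle array 3. The tissue difference, 1524, became 1102 with quantile normalization, 980 without the slide block, 725 with the replicate block and 621 to 1380 with 1 array left out. Direction turned at Cesl1 with normexp (-0.028) and at Cyp2f4 with normexp (-0.29) and with outlier spots kept (-0.83). Among values of named genes, 2180 kept direction and side of the threshold, 939 no longer passed and 21 newly passed. Of list counts, 1332 stayed within 1.5 times and 588 did not. The median over all features, 0.06, was -0.14 with normexp and 0.13 without vehicle array 3. The cause of these differences was not tested. Precision is limited by 3 arrays per group.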

Other observations

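Calls were also found in gene groups not described above. Over all features 9.67% were called, and over genes with a symbol 11.5%. The share was 23.5% for cytochrome P450 genes, 14.8% for steroid and retinoid metabolism and 22.7% for steroid receptors and coregulators. For matrix proteases it was 21.1%, for complement and coagulation 17.4% and for amino acid transporters 18.8%. Among 17 cytochrome P450 genes 3 rose and 1 fell (4 without V3, 0 without V2 and 1 without any other array for rises, 2 without V3 and 1 without any other array for falls): Cyp4a8 (3.49 ± 0.61), Cyp2f4 (1.89 ± 0.19, 2 vehicle arrays) and the sterol hydroxylase gene Cyp27a1 (1.09 ± 0.19) rose, and Cyp3a9 (-3.21 ± 0.38) fell. Well above background were 1 of 3 vehicle arrays for Cyp4a8 and Cyp2f4 and 2 of 3 DHT arrays for Cyp2f4 and Cyp3a9. The rise of Cyp2f4 changed sign with normexp and with outlier spots kept. In steroid and retinoid metabolism 2 of 27 rose and 2 fell (3 without V3, 1 without V2 or D3 and 0 without any other array for rises, 2 without V3 and 0 without any other array for falls). Akr1c14, which acts on 3-keto steroids, rose by 1.59 ± 0.36 and the sulfotransferase gene Sult1a1 by 1.08 ± 0.20, while Hsd17b13 (-0.71 ± 0.16) and the glucuronosyltransferase gene Ugt1a1 (-1.32 ± 0.28) fell. Of 22 steroid receptors and coregulators 2 rose, Fkbp5 and Pparg, and 3 fell, Rara (-0.70 ± 0.16), Ppard (-1.31 ± 0.24) and Nr1d1 (3 without V3, 2 without D3 and 1 without any other array for rises, 1 without V3 or D1 and 0 without any other array for falls).

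Matrix protease genes had 4 falls and 0 rises of 19 (5 without V3, 1 without D3 and 0 without any other array): the serpin gene Serpinb5, with levels of 4.23, 4.09 and 4.19 on the vehicle arrays and 3.28, 3.40 and 3.23 on the DHT arrays (adjusted p = 0.0172, limma), Plau (-1.55 ± 0.29), its receptor gene Plaur (-0.91 ± 0.18) and Mmp12 (-1.82 ± 0.40). In complement and coagulation Cfd (1.27 ± 0.25), Cd55 (1.18 ± 0.23) and Pros1 (1.07 ± 0.22) rose and Masp1 (-0.92 ± 0.14) fell among 23 (3 without D1, 2 without V3, 1 without D3 and 0 without any other array for rises, 2 without V3, 1 without D1 and 0 without any other array for falls). Other probes of Masp1 gave -3.03 and -1.56. Cytosolic chaperones rose at Dnaja1 (1.83 ± 0.27), Hsph1 (0.97 ± 0.23) and Dnajb4 (0.90 ± 0.15) among 24, with 1 without D3, 0 without V1 or V2 and 2 without any other array. Amino acid transporters rose at Slc7a2 (1.07 ± 0.21) and fell at Slc1a3 (-0.63 ± 0.14) and Slc1a4 (-1.11 ± 0.20) among 16 (1 without V3 or D2 and 0 without any other array for rises, 2 without V3 and 0 without any other array for falls). Single calls in other lists were Isg20 of the interferon response (1.27 ± 0.21, 1 of 21), Myh7 of the skeletal muscle and blood cell markers (2.17 ± 0.42, 1 of 14), and Nme1 of nucleotide synthesis (0.83 ± 0.17). Etfb of fatty acid oxidation rose (0.86 ± 0.19), beside Cpt2 and the fall of Cpt1a given above. Among lysosome and autophagy genes Atg12 rose (0.76 ± 0.15) and Ctsz fell (-0.81 ± 0.19). Of these 6 genes none passed in more than 2 of the 6 fits with 1 array left out. The share called was 4.76% in the interferon list and 7.14% in the muscle and blood, nucleotide and lysosome lists. It was 12.5% for both fatty acid oxidation and cytosolic chaperones. These shares lay near or below those over all features (9.67%) and over genes with a symbol (11.5%).

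Lists with 0 calls (limma) had these members nearest to passing: Rpl19 of the ribosome (0.86 ± 0.28, adjusted p = 0.112), Eif4e of translation (0.53 ± 0.16, 0.0914), Cox7b of the respiratory chain (0.64 ± 0.16, 0.0563) and Notch4 of Notch signalling (0.79 ± 0.21, 0.0695). For immune cells they were RT1-DMa (-0.77 ± 0.21, 0.0671), Cd6 (-0.95 ± 0.32, 0.113), Tyrobp (-0.64 ± 0.18, 0.0785) and Ms4a2 (0.36 ± 0.18, 0.240). For stroma, nerve and chromatin they were Kcnmb1 (0.76 ± 0.36, 0.227), Col3a1 (0.93 ± 0.35, 0.143), Pmp22 (0.85 ± 0.22, 0.0649) and Hmga1 (-0.92 ± 0.26, 0.0740). At an unadjusted p under 0.05 those lists held between 0 (neutrophil and mast cells) and 10 (mitosis) members, and with 1 array left out they had 0 to 2 calls each.

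Some of the largest changes carried no gene name in the tables used. The probe A_44_P1007870, well above background on all 6 arrays, rose by 5.51 log2 units and A_44_P292711, well above background on 1 vehicle array, by 6.85. The probe A_44_P499156 fell by 6.81.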
